A study of Mus musculus with 9 samples.

Results

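The oocyte-secreted factors are proteins that the mouse oocyte makes and releases to the somatic cells around it. The 7 genes described here are Gdf9, Bmp15, Bmp6, Fgf8, Oosp1, Oosp2 and Oosp3, chosen by name as secreted products of the oocyte, out of 30153 genes in the joined count tables. All 7 were found and all 7 had enough reads to be tested in every comparison. RNA was measured in pools of metaphase II (MII) oocytes, the ovulated eggs arrested in the second meiotic division, from 4-week-old Sycp3CreERT2/+; Rosa26nT-nG/+ females of mixed genetic background. Every group carried both alleles. Sycp3CreERT2 places a tamoxifen-inducible Cre recombinase under the control of the meiotic gene Sycp3, and Rosa26nT-nG makes a nuclear red protein until Cre recombines it and a nuclear green protein afterwards. Females received 5 IU of PMSG and, 48 h later, 5 IU of hCG, and eggs were taken from the oviduct 13 h after hCG, stripped of their cumulus with hyaluronidase for 1 min and hand-picked by fluorescence. The GFP High group held pools of 15, 15 and 16 eggs, GFP Low pools of 49, 52 and 57, and RFP pools of 87, 88 and 100, so GFP High rests on the fewest eggs. There were 3 libraries per group. The labels do not say whether the pools of a group came from separate females. The p-values therefore set group differences against the spread between these pools, which may be partly technical.

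GDF9 and BMP15 are ligands of the transforming growth factor beta family, made as precursors, cleaved by furin-like proteases and secreted as dimers, with each other or alone. They act on granulosa and cumulus cells through the type II receptor BMPR2 and the type I receptors TGFBR1 and BMPR1B, which signal through SMAD proteins. In the mouse, loss of Gdf9 arrests follicle growth, loss of Bmp15 alone lowers fertility with largely normal follicle growth, and both factors act on the cumulus cells before ovulation. BMP6 is a further ligand of this family, and FGF8 is a fibroblast growth factor that acts with BMP15 to drive glycolysis in cumulus cells. The OOSP proteins are small proteins secreted by the oocyte and related to the placental protein PLAC1. RNA was captured by its poly-A tail, and tails of stored messages lengthen or shorten during egg maturation, so a level here is that of polyadenylated message and not of protein.

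Library totals ran from 19381677 to 27746256 counts. The reporter counts went with the group labels: eGFP had 0 to 16 counts in RFP, 282 to 662 in GFP Low and 869 to 1081 in GFP High, and tdTomato had 46 to 94, 16 to 35 and 0 to 2 in the same order. The eggs expressed all 15 of the oocyte markers examined at 1 CPM (counts scaled to the library total and by TMM, a normalisation between libraries) or more. The most abundant were Dppa3 and Npm2. Of 21 granulosa and cumulus markers, 9 reached a mean of 1 CPM, and their summed level was 131 to 199.99 CPM in RFP, 139.97 to 155 in GFP Low and 112 to 219 in GFP High, most of it from Nr5a2, at a mean of 121 CPM. Amh, a granulosa gene, had 0 counts in all libraries except GFP Low 3, with 8, and Amhr2 and Pgr had at most 2 in any library. Other markers of this list had more in some libraries. Inha had 144 counts in RFP 2, 108 in GFP Low 1 and 88 in GFP High 1. Inhba had 188, 125 and 149 in the same libraries. The cumulus genes Ptx3 and Tnfaip6 were highest in RFP 2 (221 and 249 counts), GFP High 1 (159 and 197) and GFP Low 1 (122 and 129), and both were at 0 counts in GFP High 2 and RFP 3.

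The 3 Oosp genes lie side by side on chromosome 19 (GRCm38): Oosp2 (ENSMUSG00000055895) at chr19:11647279-11660559 and Oosp1 (ENSMUSG00000041857) at chr19:11667460-11691150 on the minus strand, and Oosp3 (ENSMUSG00000055933) at chr19:11697055-11711874 on the plus strand. The gap between Oosp2 and Oosp1 is 6900 bases and that between Oosp1 and Oosp3 is 5904 bases, so Oosp1 and Oosp3 are transcribed away from each other. Outside the cluster, Ms4a3, the protein-coding neighbour next to Oosp2, had a mean of 0.0654 CPM and Gif, next to Oosp3, a mean of 0.186 CPM. Of this run of protein-coding genes, the 3 Oosp genes had high levels in the egg and the gene on either side was near 0. Gdf9 (ENSMUSG00000018238) lies at chr11:53431023-53437904 on the plus strand, 191 bases from Uqcrq, a gene of mitochondrial complex III that runs the other way and had a mean of 107.6 CPM. Bmp15 (ENSMUSG00000023279) lies on the X chromosome at chrX:6314107-6320721 on the minus strand, and Fgf8 (ENSMUSG00000025219) at chr19:45736798-45742915 on the minus strand. Bmp6 (ENSMUSG00000039004) lies at chr13:38345107-38500302 on the plus strand, and its 3′ end overlaps the 3′ end of Txndc5 (chr13:38500079-38528824) on the minus strand. Txndc5 had a mean of 181 CPM, and whether the counting used strand is not given in the sources used here, so reads in the overlap cannot be assigned and the level of Bmp6 is uncertain to that extent. An annotated pseudogene, Gm19224, lies within the span of Oosp3 on the other strand, as the antisense gene 4930579J19Rik does within that of Bmp6, and neither was matched in the tables.

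Stretches of 150 bases upstream of 3 of these genes are shown because they compare the most abundant member with its neighbour and with Bmp15. The RefSeq promoter table on GRCm38.p6 held 4 of the 7 members. The letters in capitals are E-boxes (CANNTG, which reads the same on both strands), the motif bound by basic helix-loop-helix factors such as FIGLA, the oocyte factor that drives the zona pellucida genes. The Oosp1 stretch spans 250 to 101 bases before the RefSeq start, because the GENCODE gene begins further upstream, and the other stretches span 150 to 1 bases before it.
Oosp1 (chr19:11691152-11691301, minus strand): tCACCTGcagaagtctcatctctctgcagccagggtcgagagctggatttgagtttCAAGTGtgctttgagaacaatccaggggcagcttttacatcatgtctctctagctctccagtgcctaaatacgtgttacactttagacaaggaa
Oosp2 (chr19:11660560-11660709, minus strand): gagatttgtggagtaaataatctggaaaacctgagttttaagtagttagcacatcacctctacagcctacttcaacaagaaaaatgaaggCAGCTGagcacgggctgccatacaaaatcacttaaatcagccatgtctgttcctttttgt
Bmp15 (chrX:6320725-6320874, minus strand): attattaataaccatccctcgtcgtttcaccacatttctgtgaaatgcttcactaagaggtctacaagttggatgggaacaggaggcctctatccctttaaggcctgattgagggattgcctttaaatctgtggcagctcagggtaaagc
Oosp1 held 2 E-boxes in its stretch, Oosp2 held 1 and Bmp15 none. Of 32544 promoters in the table, 49.2% held an E-box in the stretch 250 to 101 bases before the start and 47.6% in the stretch 150 to 1 bases before it, so carrying one does not set the Oosp genes apart.

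Scaled by gene length, the 7 factors covered a wide range and kept one order in nearly every library. RPKM (CPM scaled by TMM, a normalisation between libraries, and divided by the authors' gene length in kilobases) averaged 1223 ± 210.1 for Oosp1 and 784 ± 64.9 for Gdf9 (SD, n = 9 libraries). Among 18483 protein-coding genes ranked by mean RPKM, Oosp1 was at place 8 and Gdf9 at place 24. Bmp15 followed at 273 ± 15.4 RPKM (SD, n = 9) and place 110.
The other Oosp genes were lower than their neighbour: Oosp3 averaged 185 ± 24.4 RPKM and Oosp2 123 ± 24.0 (SD, n = 9). Fgf8 was close to Oosp2 at 101 ± 13.1 RPKM, and Bmp6 was the lowest at 37.5 ± 2.24 (SD, n = 9). Even Bmp6 stood at place 1378 of the protein-coding genes. Each factor exceeded the next one in this order in 9 of 9 libraries, except that Oosp2 exceeded Fgf8 in 8 of 9. Levels between genes also depend on the annotated length and on how well a message is captured, so Oosp2 and Fgf8, a factor of 1.22 apart, cannot be ordered with certainty.

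**Figure D1:**
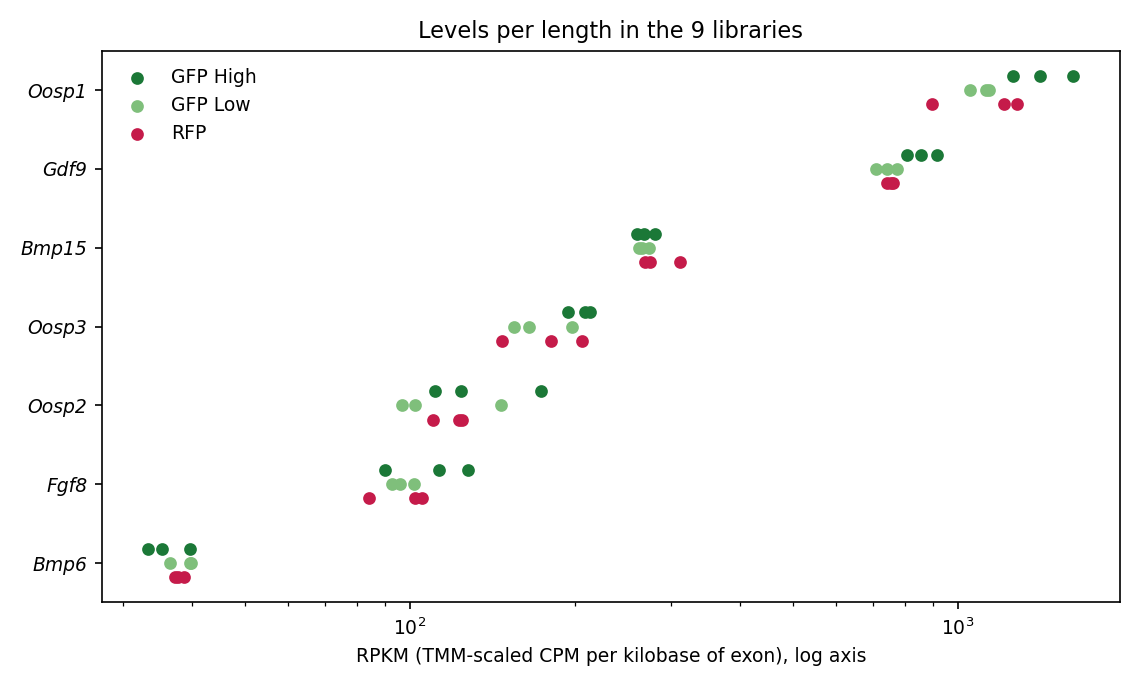
RPKM of each factor (x axis, log scale) in each of the 9 libraries (points, coloured by group). Oosp1 and Gdf9 lie far to the right of the rest, Bmp6 lies lowest at a mean of 37.5 RPKM, and the ranges of Oosp2 and Fgf8 overlap.

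Gdf9 was the one factor whose GFP High libraries all lay above those of both other groups, by a small amount that did not pass the test. It was at 1638, 1859.7 and 1737 CPM in GFP High 1, 2 and 3. Levels in GFP Low 1, 2 and 3 were 1509, 1439 and 1573 CPM, and in RFP 1, 2 and 3 they were 1506, 1543 and 1532 CPM. Every GFP High library lay above every library of the other groups, while GFP Low and RFP overlapped. Of all genes tested, 4.88% lay in this way above RFP and 4.69% above GFP Low. The share above both groups at once was not counted. The fitted difference of GFP High against RFP was 0.20 on the log2 scale (SE 0.07), a fold of 1.15 with a 95% interval of 1.03 to 1.28, and the edgeR quasi-likelihood adjusted p was 0.997 (unadjusted p = 0.0193). Against GFP Low the fold was 1.16 with an interval of 1.05 to 1.28 (edgeR adjusted p = 0.998, unadjusted p = 0.00865). GFP Low against RFP gave a fold of 0.988 with an interval of 0.896 to 1.09 (edgeR adjusted p = 1.00). These intervals are per gene and carry no correction for the number of genes tested. Without GFP High 2, the highest library, the log2 differences of GFP High were 0.14 against RFP and 0.16 against GFP Low.

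Bmp15, the partner of Gdf9, showed no such separation. Its levels were 796, 857 and 818 CPM in GFP High 1, 2 and 3, 811, 834 and 799.8 CPM in GFP Low 1, 2 and 3, and 822, 838 and 951 CPM in RFP 1, 2 and 3. RFP 3 was the highest of all libraries and the remaining values of the groups overlapped. The fold was 0.950 for GFP High against RFP (95% interval 0.837 to 1.08, edgeR adjusted p = 0.997) and 0.938 for GFP Low against RFP (0.837 to 1.05, edgeR adjusted p = 1.00). For GFP High against GFP Low it was 1.01 (0.917 to 1.12, edgeR adjusted p = 0.998). The log2 difference of GFP High against RFP, -0.07 with all libraries, was -0.01 without RFP 3 and -0.12 without RFP 1. Bmp15 had the smallest spread over the 9 libraries, with a coefficient of variation of 5.63%, followed by Bmp6 at 5.96% and Gdf9 at 8.27%.

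GDF9 and BMP15 can pair with each other, so the balance of their messages was read within each library, where scaling between libraries cancels. Gdf9 RPKM exceeded Bmp15 RPKM by a ratio of 3.10, 3.27 and 3.20 in GFP High 1, 2 and 3. The ratio for GFP Low 1, 2 and 3 was 2.80, 2.60 and 2.96, and in RFP 1, 2 and 3 it was 2.76, 2.78 and 2.43. All GFP High libraries lay above all others, and the other groups overlapped. Gdf9 itself was separated in the same way, so the ratio is not separate evidence. Group means were 2.65 ± 0.196 in RFP, 2.79 ± 0.182 in GFP Low and 3.19 ± 0.0837 in GFP High (SD, n = 3). No test was made of this ratio because both genes belong to the chosen set, and the lowest value, in RFP 3, goes with the highest Bmp15 level.

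**Figure D2:**
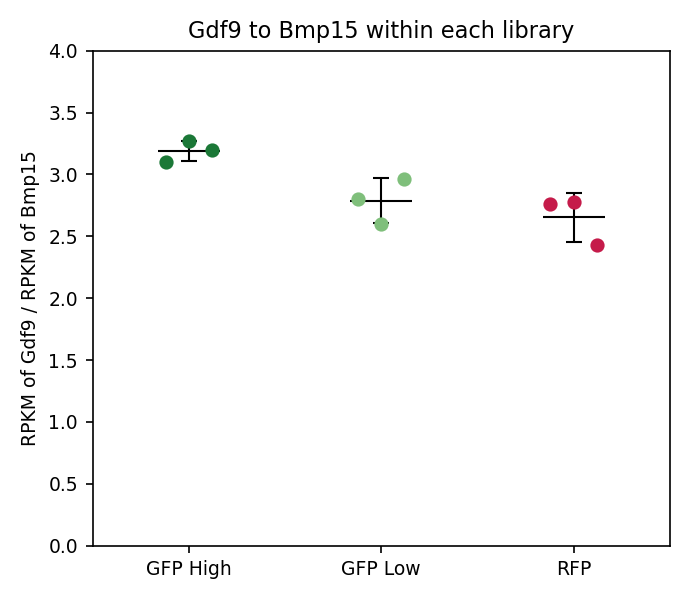
Ratio of Gdf9 to Bmp15 RPKM (y axis, from 0) in each library (points, replicates 1 to 3 from left to right) with the group mean and SD (bars, n = 3). The GFP High libraries lie between 3.10 and 3.27 and the other libraries between 2.43 and 2.96.

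Oosp1 had the largest fitted difference of the 7 factors, with a higher mean in GFP High than in either other group, and it too did not pass the test. Its levels were 1372, 1579 and 1227 CPM in GFP High 1, 2 and 3. Those in GFP Low 1, 2 and 3 were 1094, 1021 and 1109 CPM, and those in RFP 1, 2 and 3 were 1181, 1244 and 872 CPM. Every GFP High library lay above every GFP Low library, as for 4.69% of genes tested. By contrast, RFP 2 was above GFP High 3 and RFP 3 was the lowest of all. The fold of GFP High against GFP Low was 1.30 (95% interval 1.13 to 1.49; log2 difference 0.38, SE 0.09). Its unadjusted edgeR p of 0.00164 was the 12th smallest of 14785 genes tested. Adjusted over all of these genes, the edgeR p was 0.998, and 0 genes passed in this comparison. The authors' deposited table gives Oosp1 a log2 fold change of 0.39 and an adjusted p of 0.0988 here. Against RFP the fold was 1.27 (1.03 to 1.57, edgeR adjusted p = 0.997). That value leaned on RFP 3: without it the log2 difference was 0.20 in place of 0.35. GFP Low against RFP gave a fold of 0.979 (0.828 to 1.16, edgeR adjusted p = 1.00).

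Oosp3 had its highest mean in GFP High, and libraries of each pair of groups overlapped. It was at 172, 175 and 159.7 CPM in GFP High 1, 2 and 3, at 163, 136 and 127 CPM in GFP Low 1, 2 and 3, and at 149, 169.5 and 121 CPM in RFP 1, 2 and 3. As for Oosp1, the highest library was GFP High 2 and the lowest RFP 3. The fold of GFP High was 1.19 against GFP Low (95% interval 1.004 to 1.42, edgeR adjusted p = 0.998) and 1.16 against RFP (0.943 to 1.42, edgeR adjusted p = 0.997). Without RFP 3 the log2 difference against RFP was 0.08 in place of 0.21, and without RFP 2 it was 0.33. GFP Low stood at 0.970 of RFP (0.802 to 1.17, edgeR adjusted p = 1.00).

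Oosp2, the third gene of the cluster, had the largest spread over the 9 libraries of the 7 factors. Its levels were 118, 84.1 and 75.2 CPM in GFP High 1, 2 and 3, 65.5, 69.2 and 99.4 CPM in GFP Low 1, 2 and 3, and 84.2, 83.3 and 74.6 CPM in RFP 1, 2 and 3. A single library was high in each of GFP High and GFP Low, and the libraries of each pair of groups overlapped. In GFP High 1, the highest for Oosp2, Ptx3 and Tnfaip6 had 159 and 197 counts, and in GFP Low 3 they had 44 and 15. In GFP Low 1, the lowest for Oosp2, they had 122 and 129. They were highest in RFP 2 (221 and 249 counts, Oosp2 at 83.3 CPM). Both were at 0 counts in GFP High 2 and RFP 3 (Oosp2 at 84.1 and 74.6 CPM). The part of cumulus messages such as Ptx3 and Tnfaip6 in the level of Oosp2 was not tested. The coefficient of variation over 9 libraries was 19.4% for Oosp2, 17.2% for Oosp1 and 13.2% for Oosp3. The fold of GFP High was 1.15 against RFP (95% interval 0.884 to 1.49, edgeR adjusted p = 0.997) and 1.19 against GFP Low (0.868 to 1.62, edgeR adjusted p = 0.998). GFP Low against RFP gave 0.969 (0.779 to 1.20, edgeR adjusted p = 1.00). The differences of GFP High moved with single libraries. Against RFP the log2 difference of 0.20 was -0.02 without GFP High 1 and 0.32 without GFP High 3. Against GFP Low the log2 difference of 0.25 was 0.02 without GFP High 1, 0.13 without GFP Low 1, 0.16 without GFP Low 2, 0.37 without GFP High 3 and 0.45 without GFP Low 3. The ratio of Oosp1 to Oosp2 RPKM ran from 7.78 to 13.1 over the libraries, and that of Oosp1 to Oosp3 from 5.69 to 7.62.

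Fgf8, the cumulus glycolysis factor, was at 152, 172 and 121 CPM in GFP High 1, 2 and 3. It was at 125, 137 and 129 CPM in GFP Low 1, 2 and 3, and RFP 1, 2 and 3 had 138, 142 and 113.5 CPM. GFP High thus held both a library above all GFP Low libraries and one below them, and RFP 3 was again the lowest. The fold of GFP High was 1.14 against RFP (95% interval 0.905 to 1.43, edgeR adjusted p = 0.997) and 1.14 against GFP Low (0.934 to 1.39, edgeR adjusted p = 0.998). The log2 difference against RFP, 0.19 with all libraries, was 0.06 without GFP High 2, 0.09 without RFP 3 and 0.31 without GFP High 3. The log2 difference against GFP Low, also 0.19, was 0.07 without GFP High 2 and 0.31 without GFP High 3. For GFP Low against RFP the fold was 0.998 (0.859 to 1.16, edgeR adjusted p = 1.00).

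Bmp6 was the one member whose mean was lowest in GFP High. It was at 137, 129.7 and 155 CPM in GFP High 1, 2 and 3, at 142, 155 and 155 CPM in GFP Low 1, 2 and 3, and at 147, 145 and 151 CPM in RFP 1, 2 and 3. GFP High 1 and 2 lay below every library of the other groups. GFP High 3 lay above all RFP libraries and within the range of GFP Low. The fold of GFP High was 0.955 against RFP (95% interval 0.811 to 1.13, edgeR adjusted p = 0.997) and 0.935 against GFP Low (0.797 to 1.10, edgeR adjusted p = 0.998). GFP Low against RFP gave 1.02 (0.905 to 1.15, edgeR adjusted p = 1.00). The log2 difference of GFP High against RFP, -0.07 with all libraries, was -0.02 without GFP High 2 and -0.15 without GFP High 3, and that against GFP Low, -0.10, was -0.05 and -0.18.

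**Figure D3:**
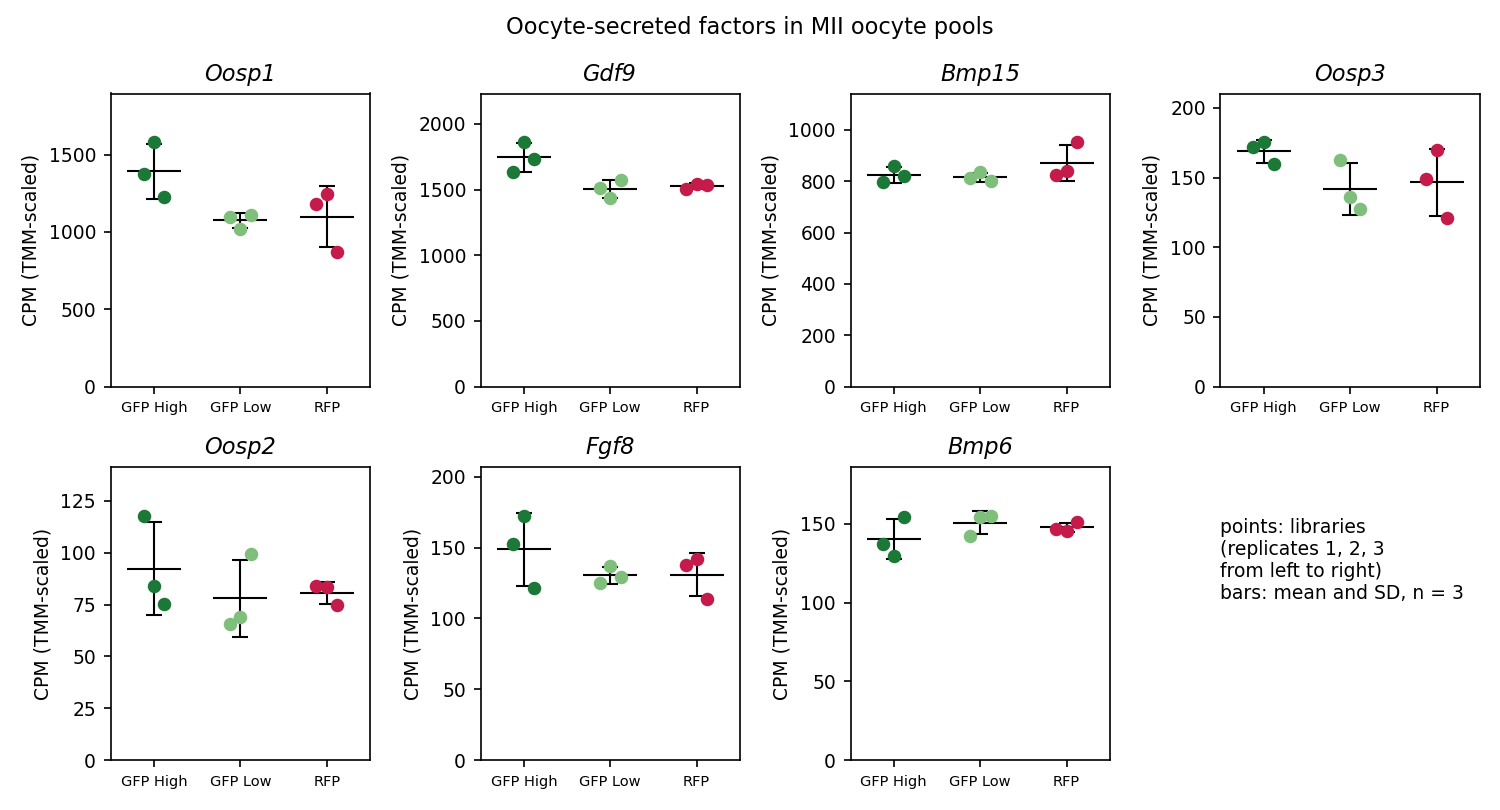
TMM-scaled CPM (y axes, each from 0) of the 7 factors in each library (points, replicates 1 to 3 from left to right) with the group mean and SD (bars, n = 3). Gdf9 is at 1638 CPM or more in each GFP High library and at 1573 CPM or less elsewhere, and the GFP Low and RFP points overlap in all panels.

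Read as a set, 0 of 7 factors passed an adjusted p of 0.05 with edgeR in any of the 3 comparisons, and 0 of 7 passed with DESeq2. In GFP High against RFP, where 0.0135% of genes were called, 5 factors had a positive and 2 a negative difference, beside 49.3% of genes positive. The median was 0.20 on the log2 scale beside -0.01 over all genes tested. Gdf9 and Oosp1 had an unadjusted p under 0.05 there, as had 4.09% of genes (2.27% counting only those higher in GFP High). In GFP High against GFP Low, where 0 genes were called (0.0%), 6 factors were positive and 1 negative, beside 49.4% of genes positive. The median was 0.21 beside 0.00 over all genes. Gdf9, Oosp1 and Oosp3, each higher in GFP High, had an unadjusted p under 0.05, as had 3.77% of genes (1.85% counting only those higher in GFP High). In GFP Low against RFP, where 0.0197% of genes were called, 1 factor was positive and 6 negative, beside 48.9% of genes positive. The median was -0.03 beside 0.00. In this comparison 0 factors had an unadjusted p under 0.05, against 2.62% of genes (1.28% counting only those higher in GFP Low). Libraries did not overlap for 1 of 7 factors when GFP High was set against RFP (11.9% of genes), 0 of 7 for GFP Low against RFP (7.68%) and 2 of 7 for GFP High against GFP Low (11.5%). In each of these cases the first group lay above the second, which held for 4.88%, 3.59% and 4.69% of genes in that order. The comparisons share libraries, so they are not separate evidence. A single test of all 3 groups on the 9 libraries, which called 0.0126% of genes, gave Gdf9 an edgeR adjusted p of 0.925 and Oosp1 the same value, and the other 5 factors 1.00. Gdf9 and Oosp1 had an unadjusted p under 0.05 in it, as had 4.65% of genes.

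**Figure D4:**
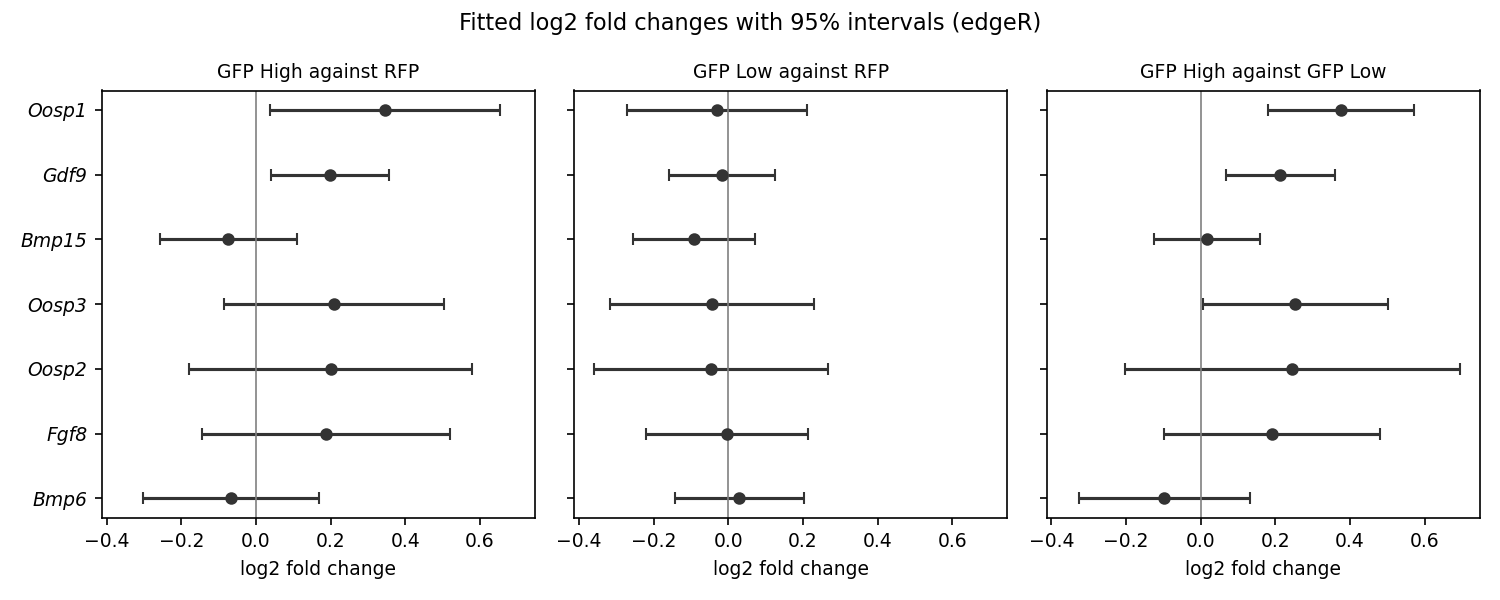
Log2 fold change of each factor (points, x axis) with its 95% interval (bars, per gene, not corrected for the number of genes) in the 3 comparisons. Intervals in GFP Low against RFP all include 0, and those of Gdf9 and Oosp1 lie above 0 in both comparisons of GFP High, as does that of Oosp3 in GFP High against GFP Low.

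The intervals also show how large a difference these pools leave room for, per gene and without correction for the number of genes. They rest on the spread between these pools, which may be partly technical. They concern shares of counts and not the amount of message per egg. Over all 7 factors, the highest upper bound of a fold was 1.57 for GFP High and 1.20 for GFP Low, both against RFP, and 1.62 between the GFP groups. The lowest lower bounds were 0.811, 0.779 and 0.797 in the same order. A difference of 2-fold in either direction therefore lay outside every one of these intervals. The lowest count of any factor in any library was 1268, for Oosp2 in GFP Low 1. Counting error alone, which leaves out errors of amplification, would give coefficients of variation of 0.482% to 2.27% between the libraries of a group. The measured coefficient of variation in GFP High ran from 3.80% for Bmp15 to 24.3% for Oosp2, beside a median of 13.3% over 6065 genes with a mean of at least 20 CPM. The medians for these genes were 7.39% in GFP Low and 8.73% in RFP.

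Single libraries stood out across several factors. GFP High 2 was the highest of the 9 libraries for 4 factors (Oosp1, Gdf9, Oosp3 and Fgf8) and the lowest for Bmp6. RFP 3 was the lowest for 3 factors (Oosp1, Oosp3 and Fgf8) and the highest for Bmp15. In log2 CPM, Oosp1 deviated from its mean over the 9 libraries by 0.43 in GFP High 2 and by -0.43 in RFP 3. Oosp3 deviated by 0.21 and -0.32 and Fgf8 by 0.34 and -0.26 in the same libraries, while Bmp15 deviated by 0.04 and 0.19. Both libraries had 0 counts of Ptx3 and Tnfaip6. GFP High 2 also had the fewest genes with at least 1 count, 14408, beside 17132 to 22022 in the other libraries. The part of this in the levels of the factors was not tested.

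**Figure D5:**
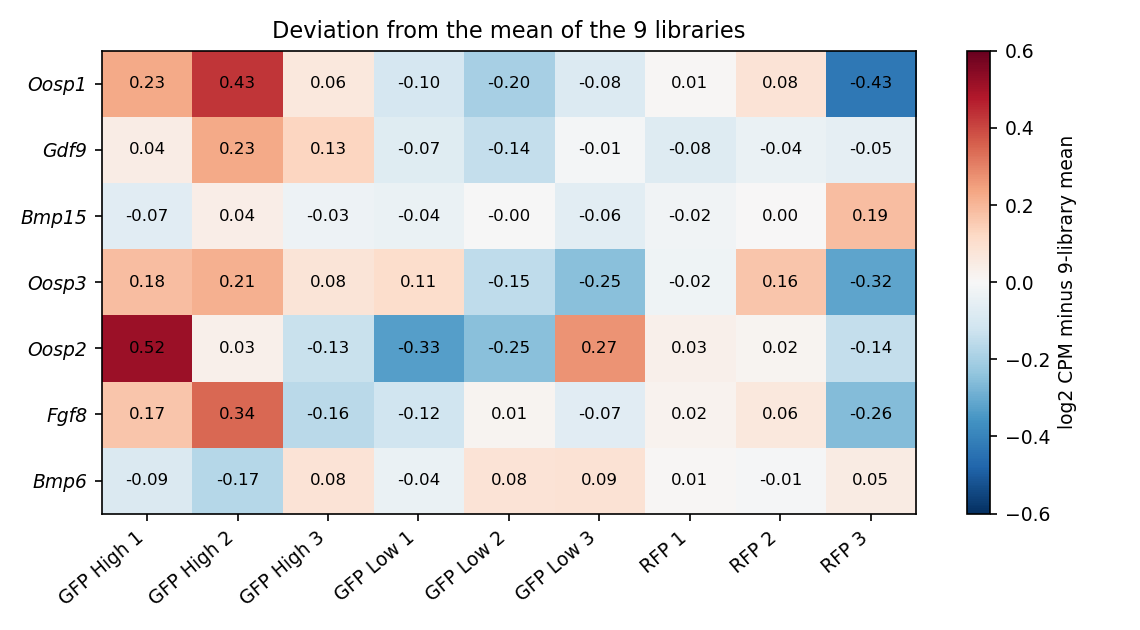
Log2 CPM of each factor (rows) in each library (columns) minus its mean over the 9 libraries; red is above and blue below the mean. GFP High 2 and RFP 3 hold the opposite extremes for Oosp1, Oosp3 and Fgf8.

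The oocyte markers also had mostly positive differences in GFP High, and none was called. Of 15 markers, 13 had a positive difference when GFP High was set against RFP and 14 when it was set against GFP Low, with medians of 0.12 and 0.15 on the log2 scale, beside 8 of 15 and a median of 0.01 in GFP Low against RFP. None passed an adjusted p of 0.05 with edgeR or DESeq2, and 4, 3 and 0 had an unadjusted edgeR p under 0.05 in that order. Over all genes tested, 4.09%, 3.77% and 2.62% had such a p, and 49.3%, 49.4% and 48.9% had a positive difference. These levels are shares of the counts of a library, so the amount of message per egg was not measured. Of the transcription factors of the oocyte, Nobox, a homeobox factor needed for Gdf9 and Bmp15 expression, averaged 209 ± 19.6 RPKM, Lhx8 76.9 ± 5.49 and Figla 23.1 ± 3.51 (SD, n = 9). None of the 5 factors of this list that were tested in each comparison passed in edgeR or DESeq2, and 0 had an unadjusted p under 0.05.

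The rest of the pathway was examined through 7 lists with 118 genes, of which 106 were matched. In edgeR 0 of 61 tested genes were called for GFP High and 0 of 61 for GFP Low, both against RFP, and 0 of 56 between the GFP groups, and DESeq2 also called 0. Unadjusted edgeR p-values under 0.05 were found for 2, 1 and 1 of these genes in that order, beside 4.09%, 2.62% and 3.77% of all genes tested. The median differences were -0.11, -0.03 and -0.08 on the log2 scale. Those of the secreted factors were 0.20, -0.03 and 0.21, and those of the 15 oocyte markers were 0.12, 0.01 and 0.15.

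Other ligands of the egg were far less abundant than Gdf9. Of the 28 further TGF-beta family ligands listed, 20 were matched and 7 reached a mean of 1 CPM. Tgfb2 was the highest at 87.3 ± 4.99 RPKM, above Bmp6, followed by Bmp5 at 20.1 ± 1.64 and Tgfb3 at 12.1 ± 1.31 (SD, n = 9). Of the 21 other FGF ligands, 18 were matched and 5 reached 1 CPM, and the highest was Fgf1 at 4.08 ± 0.790 RPKM, beside 101 for Fgf8.

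Receptors of these ligands differed widely in level in the egg itself, and 10 of 16 receptors and co-receptors reached a mean of 1 CPM. Bmpr1b, the type I receptor used by BMP15, averaged 48.2 ± 3.49 RPKM, and Bmpr2, the type II receptor of both GDF9 and BMP15, 10.04 ± 1.08 (SD, n = 9). Acvr1b, a type I receptor for activins, was at 12.3 ± 1.01 RPKM, and Tgfbr1, the type I receptor used by GDF9, at 1.74 ± 0.244 (SD, n = 9). Of the intracellular genes, Ski, a SMAD co-repressor, was at 65.9 ± 7.14 RPKM, Smad3 at 38.4 ± 2.62 and the ubiquitin ligase gene Smurf2 at 25.1 ± 2.17 (SD, n = 9). Furin, which cleaves the precursors of this ligand family, was at 14.9 ± 1.34 RPKM and the protease gene Tll1 at 10.4 ± 1.46. Extracellular antagonists were low, the highest being Sost at 8.17 ± 2.04 RPKM and Dand5 at 5.89 ± 1.44. On the FGF side, Spry4, a feedback inhibitor of receptor tyrosine kinase signalling, stood out at 189.6 ± 7.84 RPKM, above Fgf8, while Spry1 was at 12.5 ± 1.69 and Fgfr2 at 5.14 ± 0.445 (SD, n = 9). Genes that cumulus cells switch on in response to the secreted factors had low levels in these stripped eggs. Of 15 such genes, 8 reached a mean of 1 CPM. The highest by RPKM were Tnfaip6 at 1.74 ± 2.42, Sqle at 1.61 ± 0.389 and Pfkp at 1.33 ± 0.231 (SD, n = 9).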

How the data were processed

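Poly-A RNA of 9 pools of mouse MII oocytes was read from both fragment ends, per the labels' protocols. The submitters' processing notes name fastp, HISAT2 2.0.5, featureCounts 1.5.0-p3, DESeq2 1.20.0 and the build mm10. The authors deposited 3 tables, 1 per pair of groups, with raw read counts per gene, which were the input of every test. The deposited tables also hold a normalised signal per library, FPKM, log2 fold changes, p-values and adjusted p-values. FPKM was used in 1 alternative and the authors' comparison values only where their table is named. Each library is in 2 of the tables with the same counts for the genes both hold. A gene missing from 1 table took its counts from the other, and for 178 genes at least 1 library had no value in either of its tables and was set to 0.

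The tables were joined by gene identifier. Each pair of groups was fitted with edgeR 4.0.16 under R 4.3.3 (filterByExpr, TMM, glmQLFit and glmQLFTest, no covariate), with Benjamini-Hochberg adjustment over all genes tested and a threshold of 0.05. Genes were also tested across the 3 groups at once on all 9 libraries. SE came from the F statistic and intervals (95%) from the t distribution with the fitted degrees of freedom. The fit was also run on simulated data with 200 changed genes, and no result here rests on that run. Levels are CPM scaled by TMM over the 9 libraries, and RPKM divides these by the authors' gene length. Log2 CPM used a prior count of 2 for likeness between genes. Alternatives were DESeq2's size factors, no filter, the DESeq2 Wald test (version 1.42.0), a fit of all 9 libraries, a replicate block, CPM without TMM and leaving out each library.

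Library totals were 19381677 to 27746256 counts. The labels name no molecular identifiers. Counts of replicates of a group differed beyond sampling noise (chi-square over degrees of freedom, 13.8 to 57.6). Coordinates are those of the files, equal to GENCODE M21 (GRCm38) for all 7 genes. Promoter stretches are from RefSeq (GRCm38.p6). The 7 genes, the lists and the tests were chosen with earlier results of these data known. The text names all 7 members, the top genes of each list by mean RPKM, genes that overlap a member, and for Gdf9, Bmp15 and Oosp1 the 3 genes of 20 CPM or more with the highest Pearson r of log2 CPM. Uqcrq, Ms4a3 and Gif, which lie beside members, and Ptx3, Amh, Amhr2, Pgr, Inha, Inhba and Tgfbr1 were added after their values were seen. Replicate numbers were not taken as pairs.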

Additional observations from a re-analysis of the deposited data

How the results depend on the processing

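The number of factors called was 0 in all 3 comparisons with DESeq2's size factors, no filter, the DESeq2 Wald test, the fit of all 9 libraries, the replicate block and every fit without 1 library. The 7 factors in 3 comparisons give 21 differences. These alternatives, other than leaving out a library, kept their sign except for Fgf8 in GFP Low against RFP, which was 0.0025 with the replicate block. Fits without 1 library changed the sign of Gdf9 (-0.0523 to 0.0125), Fgf8 (-0.0986 to 0.0578), Oosp1 (-0.175 to 0.0672), Oosp2 (-0.263 to 0.066) and Oosp3 (-0.166 to 0.0726) in GFP Low against RFP, of Oosp2 (-0.0207 to 0.321) in GFP High against RFP and of Bmp15 (-0.0169 to 0.0352) in GFP High against GFP Low, all on the log2 scale. Gdf9, Oosp1, Oosp3 and Fgf8 stayed positive in both comparisons of GFP High in all of these fits. The adjusted p of Oosp1 in GFP High against GFP Low was lowest without the filter on low counts (0.062), at 0.0989 with DESeq2, and up to 1.00 in the others. Over all genes, the 2 calls in GFP High against RFP became 16 without the filter, 12 with DESeq2 and 4 with the replicate block. The 3 calls in GFP Low against RFP became 34 without the filter and 10 with DESeq2, and the 0 calls in GFP High against GFP Low became 16 and 4. Across the 3 groups, 2 calls became 70 without the filter. Without 1 library the counts ran from 0 to 2, 2 to 3, 0 to 1 and 2 to 3 in that order. Leaving out RFP 2, RFP 3, GFP High 1 or GFP High 3 gave the 0, and leaving out GFP High 3 gave the 1 call between the GFP groups. The cause was not tested. The ratio of Gdf9 to Bmp15 from the authors' FPKM is equal by construction, since it uses the same counts and lengths. Mean levels without TMM moved by less than the SD. Labels number the replicates alike in each group, but correlations of the deviations of like-numbered libraries were only -0.106 to 0.12, so the numbers were not taken to pair them, and 0 of 6 libraries in GFP High against RFP, 2 of 6 in GFP Low against RFP and 4 of 6 between the GFP groups correlated best with the library of their own number. The replicate block changed no other call.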

Other observations

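The genes whose log2 CPM over the 9 libraries was most like that of a factor were sought among 6064 genes of 20 CPM or more. The values are descriptions of libraries that share depth and composition, and carry no test. For Oosp1 the nearest was Pak1ip1 (Pearson r = 0.977 over 9 libraries), a gene of ribosome assembly at 425 ± 20.3 CPM in RFP, 423 ± 8.05 in GFP Low and 453 ± 16.8 in GFP High (SD, n = 3). The ribosomal protein gene Rpl23a (r = 0.951) and the pseudogene Rps10-ps2 (r = 0.947) came next. Neither of the other Oosp genes was among the 3 nearest. For Gdf9 the nearest were Rin3 (r = 0.946), at 32.3 ± 5.14, 20.5 ± 1.54 and 21.1 ± 0.851 CPM in the order GFP High, GFP Low and RFP (SD, n = 3), Mettl3, an RNA methyltransferase gene (r = 0.941), and Ccdc162 (r = 0.938). For Bmp15 they were Cds1 (r = 0.936), at 93.1 ± 11.3, 90.4 ± 4.06 and 105.99 ± 14.4 CPM in the same order, Aco1 (r = 0.914) and Ddx6 (r = 0.914).

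Plac1, the placental relative of the Oosp genes, had a mean of 0.176 CPM over the 9 libraries and at most 14 counts in any of them.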
